A study of Anas platyrhynchos with 6 samples.

Results

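Circular RNAs from the genes of ion channels and membrane carriers were examined in the breast muscle of Shanma duck embryos. A gene was taken when its deposited description held the phrase "solute carrier" or the whole word "channel", with CACNA1C, CACNA2D1 and SLC8A3 left out. This gave 97 genes of 4129, with 276 back-splice junctions of 14917 and 312 listings of 16631. A back-splice junction is the joint where the end of a downstream exon is spliced back to the start of an upstream exon, and its reads stand for the circle that it closes.

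The tissue was collected at embryonic day 19 (E19), when per the labels most myoblasts have differentiated, and at day 13 (E13), when they have not. There were 3 libraries per stage, each from a female embryo of the same strain and with no treatment. Ribosomal RNA had been removed and linear RNA digested with RNase R, so that the messenger RNA of these genes was not measured. The libraries held 49587 to 69736 back-splice reads per junction table at E19 and 36506 to 58647 at E13, of which the channel and carrier genes took 2.23 to 2.68% at E19 and 2.26 to 2.82% at E13. Circles of muscle marker genes were present in every library, with 146 to 300 reads at E19 and 86 to 126 reads at E13 over 4 of 10 listed markers. SRPBM is the number of back-splice reads scaled by the authors to the bases of a library that mapped or were candidates for a back-splice. Coordinates follow the deposited table, made on an Ensembl duck genome whose build the sources used here do not name, and starts are counted from 1. None of the 4 fat or 4 liver markers had a circle, and the blood and endothelial markers had at most 4 reads in any library. Connective tissue markers had 7 to 18 reads at E19 and 2 to 24 at E13, over 4 of 10 listed markers. Those of nerve and Schwann cells had 59 to 157 reads at E19 and 22 to 61 at E13, over 3 of 10 listed markers. Most of the nerve and Schwann cell reads came from a single marker.

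Ion channels are pores that let sodium, potassium, calcium or chloride run down their gradients, and they set the membrane potential on which the contraction of muscle depends. Solute carriers move ions, amino acids, sugars, nucleotides and vitamins across the plasma membrane and the membranes of organelles, often by coupling one substrate to another. A circle from such a gene most often holds inner exons of its transcript and is usually not translated, so its level says nothing by itself about the protein.

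Carriers gave most of the circular RNA. The 66 genes described as solute carriers, which include the organic anion carriers of the SLCO family, held 7249 reads or 90.7% of the total, and the 31 genes with "channel" in their description held 746. Of these 31, KCTD15, KCTD20 and KCTD1 encode adaptor proteins that share a domain with potassium channels, and KCNIP4 encodes a protein that binds them. By class, carriers of ions held 57.1% of the reads, carriers of organic ions and vitamins 14.2%, carriers of sugars and monocarboxylates 8.17%, carriers of amino acids and transmitters 4.99%, and mitochondrial carriers 3.59%. The reads were concentrated in few genes. The 5 genes with the most reads, SLC9A7, SLC9A9, SLC10A7 and SLC2A13 among them, held 69.8% of the 7995 reads, and the 10 most abundant junctions held 69.6%. At the other end, 54 genes had under 10 reads each and 212 reads together.

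**Figure D1:**
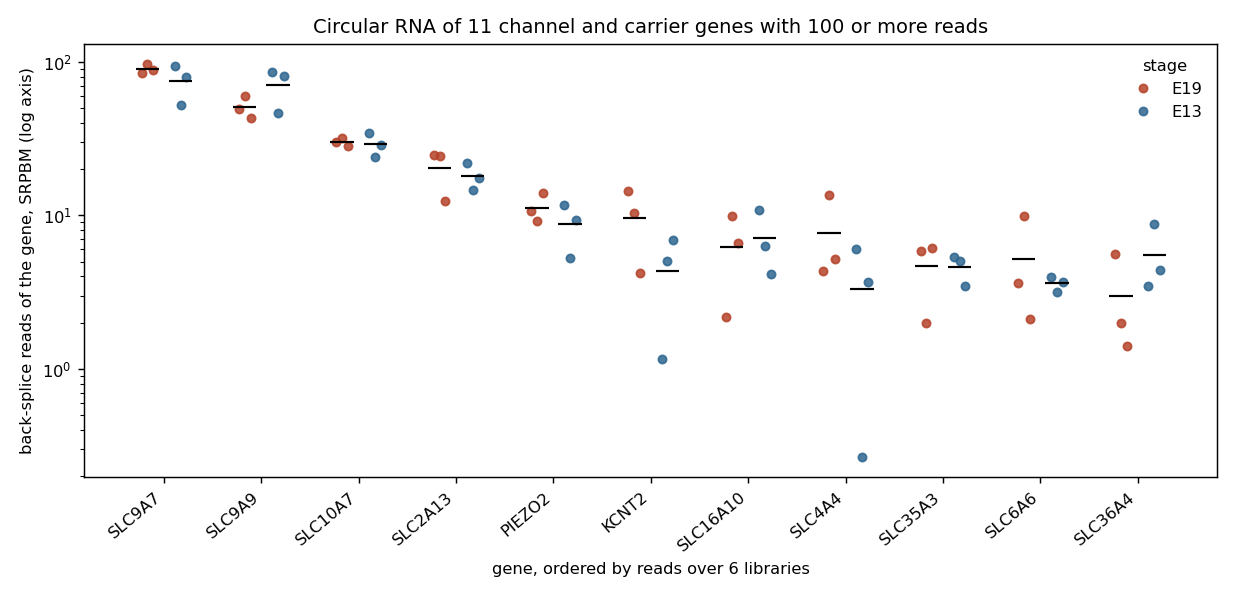
Level of circular RNA in SRPBM (log axis) of 11 channel and carrier genes with at least 100 reads, in each of 3 E19 (left of each pair) and 3 E13 libraries. Each point is a library and each bar the mean of a stage; in each of these genes the E19 and E13 libraries overlap.

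The most abundant genes were the organellar sodium/proton exchangers SLC9A7 and SLC9A9 (NHE7 and NHE9), which exchange luminal protons for cations in the trans-Golgi network and endosomes. SLC9A7 held 2043 reads, which was 25.6% of all channel and carrier reads, and SLC9A9 held 1502.

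The circles of these exchangers differed in design. In SLC9A7 the most abundant circle held 3 exons (circRNA4727, chr1:147989455-147990249, minus strand) and 55.4% of the reads of the gene. These were exons 8 to 10, counted from the listings of neighbouring circles, with a listed length of 309 bases. Further circles held exons 8 to 15 with 424 reads and exons 11 to 15 with 403 reads, so that the same downstream exon closed both of them. In SLC9A9, 97.2% of the reads belonged to a single circle of exons 11 to 14 (circRNA4637, chr9:1941259-1981253, plus strand, 395 bases).

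The start of the SLC9A7 circles was unusual in the table. Of 2385 listings with both flanking introns given, 2285 started within 1 base of the upstream edge of their first exon, and 4 started 9 bases inside it, among them the SLC9A7 circles of exons 8 to 10 and 8 to 15. The SLC9A7 circles that started at the annotated edge of exon 8 had 1 read for exons 8 to 10 and 19 for exons 8 to 15, compared with 1131 and 424 for those that started 9 bases inside. The listed length of the circle of exons 8 to 10 is 309 bases for either start, so it leaves the 9 bases out of account. SLC9A7 has paralogues of like sequence, and whether reads were shared among them was not tested.

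**Figure D2:**
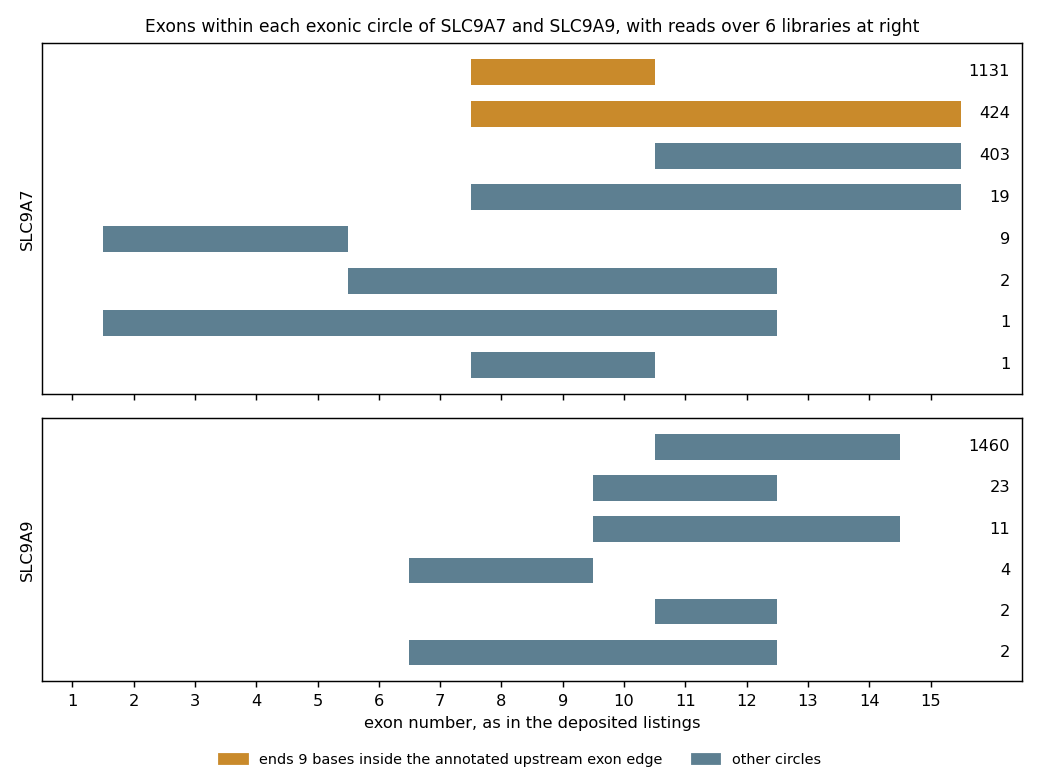
Exons held by each exonic circle of SLC9A7 and SLC9A9 (x axis, exon number), with the reads over 6 libraries at the right. Bars in orange are circles that started 9 bases inside the annotated exon edge, whose exon numbers were taken from neighbouring listings; they lead in SLC9A7 (1131 reads) and are absent from SLC9A9.

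To ask which of these genes changed their circular RNA between the stages, reads were summed per gene and compared by the quasi-likelihood test of edgeR over the whole table. Of the 97 genes, 43 had at least 10 reads and were tested, and 2 passed an adjusted p of 0.05, where 2.72% of all 1836 genes tested passed. The count was 1 higher at E19, where 1.8% of all genes were, and 1 lower, NALCN, where 0.926% were. The share of calls was thus near that of the whole table. The median log2 fold change of the 43 genes was 0.04 and that of all genes tested was 0.24, with 23 genes above 0 and 20 below. The 4 muscle markers tested all had a log2 fold change above 0, with a median of 1.22, and 1 passed. This was DMD, which encodes dystrophin and had 51, 53 and 60 reads at E19 and 9, 17 and 21 at E13 (edgeR adjusted p = 0.0181). MYBPC1 had 12, 10 and 0 reads at E19 and none at E13 (edgeR adjusted p = 0.177). MYOM1 had 0, 3 and 3 reads at E19 and 4, 0 and 0 at E13 (edgeR adjusted p = 0.974). LDB3, with the most reads of these markers, overlapped between the stages with 143, 234 and 83 reads at E19 and 110, 69 and 105 at E13 (edgeR adjusted p = 0.415), and the part of the muscle markers in the results was not tested. In bulk tissue, fewer cells of a type and less circular RNA per cell cannot be told apart.

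SLC9A7, the gene with the most reads, had 348, 394 and 374 reads at E19 and 405, 199 and 323 at E13. The stages overlapped, and its log2 fold change of 0.25 (SE 0.35, edgeR adjusted p = 0.937) was near the median of all genes. Its circles did not move as one in every library. Of the reads of the circles of exons 8 to 10 and 8 to 15, the shorter circle took 65.6, 79.0 and 84.0% at E19 and 68.3, 65.0 and 68.9% at E13. Its share was thus above all E13 libraries in 2 of the 3 E19 libraries and overlapped in the other. An intronic listing of SLC9A7 with 53 reads spans nearly the same stretch as the circle of exons 11 to 15 and was counted apart from it.

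SLC9A9 had 203, 242 and 182 reads at E19 and 372, 176 and 327 at E13. In reads the E19 libraries lay below E13 replicates 1 and 3 and above E13 replicate 2. In SRPBM E19 replicate 3, at 42.9, lay below E13 replicate 2, at 46.67. The log2 fold change was -0.49 (SE 0.35, edgeR adjusted p = 0.732), and it lay further below 0 under other scalings without passing. Those scalings lowered the median of all genes as well. The circle of exons 11 to 14 followed the gene, with 197, 236 and 177 reads at E19 and 357, 175 and 318 at E13. The difference between SLC9A7 and SLC9A9 in their response to stage was not tested.

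**Figure D3:**
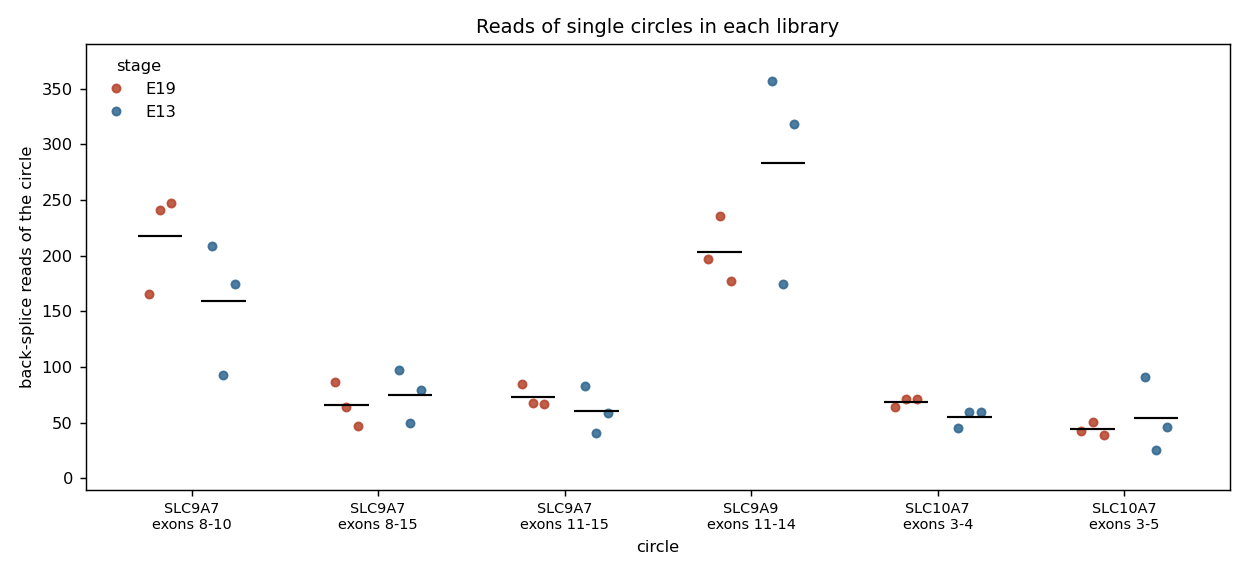
Back-splice reads of 6 circles of SLC9A7, SLC9A9 and SLC10A7 in each of 3 E19 (left of each pair) and 3 E13 libraries, with the mean of each stage as a bar. The SLC9A9 circle of exons 11 to 14 has the most reads of the 6. It has the widest spread at E13 in absolute reads (357, 175 and 318), though not relative to its mean.

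Other carriers of ions gave fewer reads. SLC4A4, the electrogenic sodium bicarbonate cotransporter, had 17 junctions, the most of any of the 97 genes, with 18, 55 and 22 reads at E19 and 26, 1 and 15 at E13. The stages overlapped (log2 fold change 1.19, SE 0.57, edgeR adjusted p = 0.387). Among its circles, circRNA11320 (chr4:16243989-16258762, plus strand, 788 bases) held exons 15 to 20, counted from the listings of neighbouring circles. It had 5, 13 and 9 reads at E19 and none at E13. This is at least 8.81-fold higher at E19 when 3 reads are allowed for over the 3 E13 libraries. Such a fold takes the reads of the stage with reads as seen and does not cover the spread between libraries. The circle of exons 7 and 8 had 10 reads in E13 replicate 1 and none elsewhere, and that of exons 5 and 6, the most abundant, had 6, 18 and 4 reads at E19 and 7, 1 and 5 at E13. None of these junctions passed the edgeR test, with adjusted p of 0.197, 0.433 and 0.941. Exon numbers of this gene differ between listings, and the end of the circle of exons 7 and 8 is exon 9 in another. SLC20A2, a sodium phosphate cotransporter, had 6, 1 and 3 reads at E19 and none at E13 (edgeR adjusted p = 0.412), and lay at least 3.26-fold higher at E19.

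The channel genes had fewer reads than the leading carriers. NALCN, the sodium leak channel that carries a background current at rest, had 0, 2 and 9 reads at E19 and 52, 5 and 18 at E13. The highest E19 library lay above the lowest E13 library, so the stages overlapped although the gene passed the test. Its log2 fold change was -2.73 (SE 0.80, edgeR adjusted p = 0.0283). Most of its reads (74.4%) belonged to the circle of exons 3 to 5 (circRNA2886, chr1:151942046-151944770, minus strand, 353 bases), with 0, 0 and 5 reads at E19 and 43, 0 and 16 at E13.

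That circle has 2 listings, which did not carry the same libraries. The listing with exon numbers held the 43 reads of E13 replicate 1 and the 5 reads of E19 replicate 3, and the listing with intron coordinates held the 16 reads of E13 replicate 3. Across the 36 joints of these genes with 2 listings, 36 values reached 10 reads in a listing, and 7 of these (19.4%) were 0 in the other, compared with 27.9% over the whole table. When the listing with more reads was taken alone, the log2 fold change of NALCN was -2.37 with an edgeR adjusted p of 0.333. Without E13 replicate 1 it was -1.69 with an adjusted p of 0.717. The listed markers of nerve and Schwann cells together had 59, 157 and 119 reads at E19 and 61, 22 and 46 at E13. Most of these reads came from a marker not reported by name. Of the others with reads, NCAM2 had 0, 4 and 0 at E19 and 0, 1 and 1 at E13. MBP had 1 read in a single E19 library and none at E13. The part of nerve cells in the NALCN result was not tested.

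SCN3A, a voltage-gated sodium channel of neurons, had no reads at E19 and 3, 0 and 8 reads at E13, which is at least 3.75-fold lower at E19 (edgeR adjusted p = 0.402). CACNA1G, a T-type calcium channel that opens at low voltage, likewise had none at E19 and 0, 3 and 7 reads at E13, at least 3.40-fold lower (edgeR adjusted p = 0.411). E13 replicate 3 held 72.7% of the SCN3A reads and 70% of the CACNA1G reads, in a single junction each. The other calcium channel genes, CACNB2, CACNA1D and CACNA1H, had 6, 5 and 1 reads and were not tested.

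KCNT2, a potassium channel opened by intracellular sodium, had 59, 42 and 18 reads at E19 and 5, 19 and 28 at E13. The stages overlapped, with a log2 fold change of 1.15 (SE 0.52, edgeR adjusted p = 0.319). Its 11 junctions were led by the circle of exons 3 to 9 (circRNA3116, chr8:7238193-7249422, plus strand, 520 bases), with 33, 11 and 11 reads at E19 and 3, 3 and 10 at E13. Here no E19 library lay below an E13 library (log2 fold change 1.73, SE 0.83, edgeR adjusted p = 0.433). Circles of exons 2 to 9 and 4 to 9, with 27 and 22 reads, ended at the same exon. A further group of KCNT2 circles ended at exon 23 and began at exon 21 or 22, with 15 and 22 reads. KCNQ1, a voltage-gated potassium channel of heart and epithelia, had 2, 11 and 0 reads at E19 and 2, 2 and 0 at E13, and it did not pass the test (edgeR adjusted p = 0.911).

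PIEZO2, a channel opened by mechanical force, was the channel gene with the most reads. It had 44, 37 and 59 reads at E19 and 50, 20 and 38 at E13, and the stages overlapped (log2 fold change 0.36, SE 0.45, edgeR adjusted p = 0.920). Of its 10 junctions, the circles of exons 5 and 6 (143 reads) and of exons 5 to 7 (56 reads) share their upstream edge. The shorter of them took 58.8, 80.6 and 60.0% of their reads at E19 and 60.5 and 86.1% in E13 replicates 1 and 3, and E13 replicate 2 held 20 reads of the shorter circle and none of the longer. TMC3 and TRPC4 had 22 and 17 reads and did not pass (edgeR adjusted p = 0.974 and 0.873). Among the remaining channel classes the most abundant genes were VDAC2 with 9 reads, CNGA3 with 7 and CLCN3 with 3. KCTD15, which encodes an adaptor and not a channel, had 66 reads.

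SLC10A7, of the family of bile acid carriers, was a further abundant carrier, with 123, 130 and 120 reads at E19 and 149, 91 and 117 at E13. Its log2 fold change of 0.04 (SE 0.36, edgeR adjusted p = 0.986) fell below 0 under other scalings, and the stages overlapped. Those scalings also lowered the median of all genes. Its abundant circles shared exon 3 as the upstream exon. The circle of exons 3 and 4 (circRNA1567, chr4:58837912-58842732, minus strand, 213 bases) had 64, 71 and 71 reads at E19 and 45, 60 and 60 at E13, and the stages overlapped once scaled to SRPBM. The circle did not pass (edgeR adjusted p = 0.992). The circle with exon 5 added (circRNA1566, chr4:58802946-58842732, minus strand, 252 bases) had 43, 51 and 39 reads at E19 and 91, 26 and 46 at E13. The shorter circle took 59.8, 58.2 and 64.5% of their joint reads at E19 and 33.1, 69.8 and 56.6% at E13, so that the E19 libraries differed little among themselves and fell within the range of the E13 libraries. An intronic listing of SLC10A7 that shares the upstream edge of exon 3 had 4, 5 and 3 reads at E19 and none at E13. This listing lay at least 3.92-fold higher at E19 (edgeR adjusted p = 0.433).

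Other carriers of organic ions and vitamins had fewer reads. SLC22A23, an orphan member of the organic ion carriers, had 21, 13 and 31 reads at E19 and 13, 12 and 4 at E13. In SRPBM its E19 libraries lay above the E13 libraries, and the gene did not pass (log2 fold change 1.11, SE 0.69, edgeR adjusted p = 0.613). SLC49A4 also lay higher at E19, with 12, 10 and 14 reads against 8, 4 and 4 at E13 (edgeR adjusted p = 0.846). SLC22A16, a carnitine carrier, had 1, 11 and 0 reads at E19 and none at E13. A single library, E19 replicate 2, thus carried it, and 10 of its reads belonged to the circle of exons 4 to 7. SLCO5A1 lay lower at E19, with 3, 2 and 0 reads against 4, 9 and 7 at E13 (edgeR adjusted p = 0.803). SLC44A3, SLC15A4 and SLC44A5 had 6, 6 and 5 junctions with 58, 45 and 33 reads.

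SLC2A13, which brings myo-inositol into cells together with protons, was the leading sugar carrier. It had 102, 98 and 53 reads at E19 and 95, 55 and 71 at E13, and the stages overlapped (log2 fold change 0.18, SE 0.39, edgeR adjusted p = 0.964). The circle of exons 3 and 4 (circRNA4971, chr1:14669727-14676009, plus strand, 369 bases) held 87.1% of them, with 88, 85 and 52 reads at E19 and 84, 55 and 49 at E13. SLC16A10, a carrier of aromatic amino acids and thyroid hormone, had 9, 40 and 28 reads at E19 and 47, 24 and 17 at E13, with overlap (edgeR adjusted p = 0.964). Its circle of exons 2 and 3 held 88.5% of its reads.

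Among carriers of amino acids and transmitters, the taurine carrier SLC6A6 led with 15, 40 and 9 reads at E19 and 17, 12 and 15 at E13 (edgeR adjusted p = 0.911). SLC36A4, a proton-coupled amino acid carrier, had 23, 8 and 6 reads at E19 and 15, 33 and 18 at E13 (log2 fold change -0.88, SE 0.65, edgeR adjusted p = 0.754). Whether the circles of this gene differed in their response to stage was not tested. That of exons 2 to 10 (circRNA4871, chr1:173296182-173327842, plus strand, 1152 bases) had 2, 3 and 0 reads at E19 and 8, 18 and 7 at E13, with every E19 library below every E13 library (log2 fold change -2.68, SE 1.32, edgeR adjusted p = 0.433). That of exons 2 to 6, which shares its upstream edge, had 15, 5 and 2 reads at E19 and 5, 9 and 10 at E13, with overlap.

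SLC1A2, the main glutamate carrier of astrocytes, had 1, 0 and 0 reads at E19 and 14, 3 and 6 at E13. The stages did not overlap, and the gene did not pass the test (log2 fold change -4.08, SE 1.90, edgeR adjusted p = 0.359). Its reads came from different circles in different E13 libraries. In replicate 1, 13 of the 14 reads lay in a circle that no other library held. Counted from neighbouring listings, this circle held exons 2 to 10. SLC38A1, a glutamine carrier, had 17, 13 and 1 reads at E19 and 0, 6 and 0 at E13 (edgeR adjusted p = 0.559).

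The mitochondrial carriers of the SLC25 family held 287 reads over 11 genes, of which 7 were tested, 5 with a log2 fold change above 0, where 58.8% of all genes tested were, and none passed, where 2.72% of all genes did. SLC25A21, which carries oxodicarboxylates, had 6, 12 and 4 reads at E19 and none at E13, which is at least 7.18-fold higher at E19 (edgeR adjusted p = 0.177). These reads were spread over 3 circles, of which that of exons 5 to 7 was present in all E19 libraries with 2, 2 and 4 reads. SLC25A26, the carrier of S-adenosylmethionine, had 2, 4 and 5 reads at E19 and none at E13, at least 3.59-fold higher (edgeR adjusted p = 0.402). SLC25A3, which brings phosphate into mitochondria, lay the other way with 2, 4 and 5 reads at E19 and 17, 8 and 5 at E13. In SRPBM its E19 libraries lay below the E13 libraries, and it did not pass (edgeR adjusted p = 0.818). SLC25A13, the aspartate/glutamate carrier citrin, was the most abundant and overlapped, with 9, 16 and 19 reads at E19 and 11, 6 and 21 at E13 (edgeR adjusted p = 0.974), and SLC25A36 had 37 reads over 5 junctions.

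SLC35A3, which brings UDP-N-acetylglucosamine into the Golgi, led the nucleotide sugar carriers with 24, 8 and 26 reads at E19 and 23, 19 and 14 at E13 (edgeR adjusted p = 0.998). A circle of exons 2 to 7 held 95.6% of them. SLC35B3, a carrier of the sulfate donor PAPS, spread 25 reads over 7 junctions. SLC30A9 was the metal carrier with the most reads, with 5, 7 and 0 at E19 and 5, 4 and 14 at E13 (edgeR adjusted p = 0.942).

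The 54 genes with under 10 reads were not tested, and most of their reads came from a library each. HCN4, a pacemaker channel, had 6 reads in E19 replicate 2 alone, and CACNB2 had 6 in E19 replicate 3 alone. TPCN1, a cation channel of endolysosomes, had 6 reads in E13 replicate 1 alone, and KCNG1, a silent subunit of voltage-gated potassium channels, had 6 in E13 replicate 2 alone. VDAC2, an anion channel of the outer mitochondrial membrane, had no reads at E19 and 8, 1 and 0 at E13, which is at least 3.06-fold lower at E19.

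**Figure D4:**
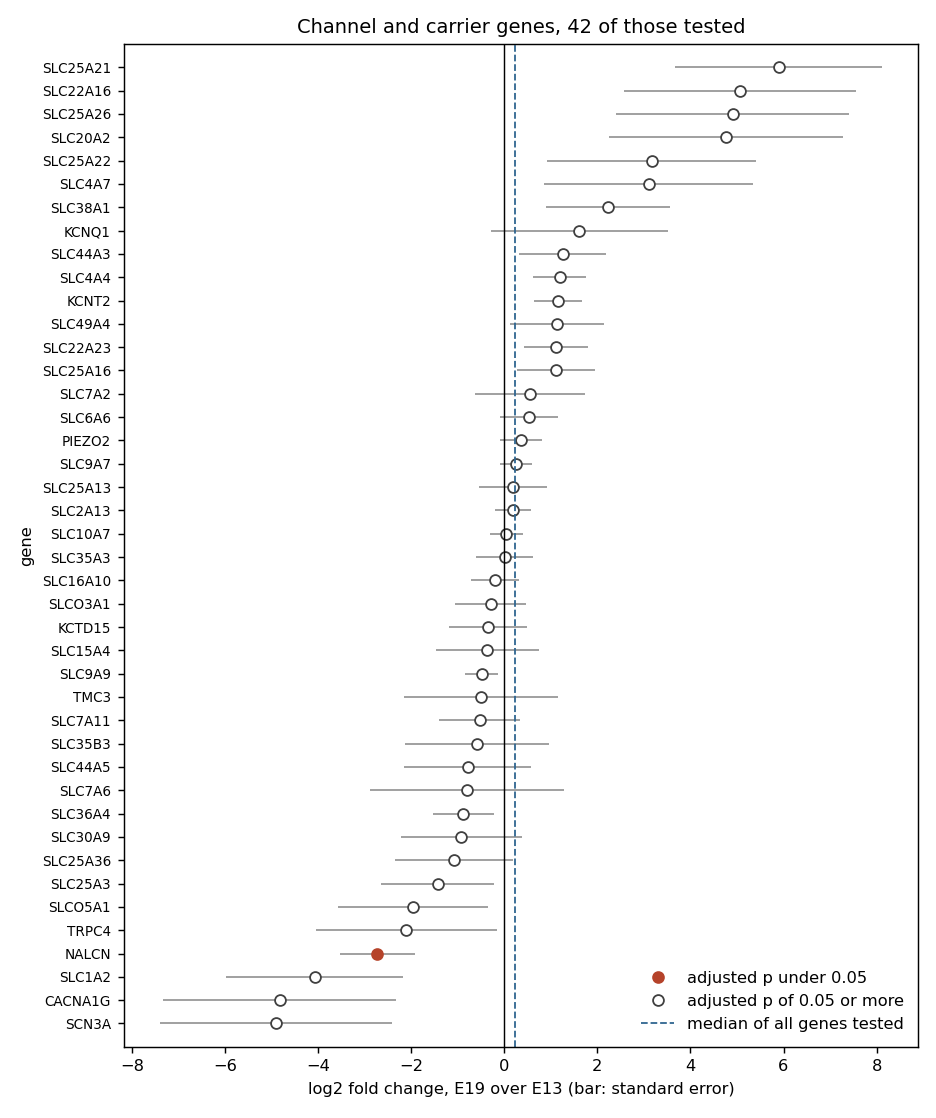
Log2 fold change of E19 over E13 (x axis; bars are standard errors) of 42 of the 43 channel and carrier genes tested, each from 3 E19 and 3 E13 libraries. The filled point, NALCN at -2.73, passed an adjusted p of 0.05; the dashed line is the median of all 1836 genes tested (0.24).

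Over all 43 genes tested, the stages did not overlap in SRPBM in 9 genes. Of these, 6 lay higher at E19, SLC22A23, SLC49A4, SLC25A21, SLC25A26 and SLC20A2 among them, where 10.4% of all genes tested did. SLC25A3, SLCO5A1 and SLC1A2 lay lower, where 5.28% did. Reads at E19 alone were found in 4 of the 43 and at E13 alone in 2, compared with 2.45% and 2.07% of all genes tested. Such a gene passed the minimum of 10 reads only through the stage in which it was seen. At an unadjusted p of 0.05, 8 of the 43 genes were past the threshold, 5 higher and 3 lower at E19, beside 12.3% of all genes (7.95% higher and 4.3% lower).

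**Figure D5:**
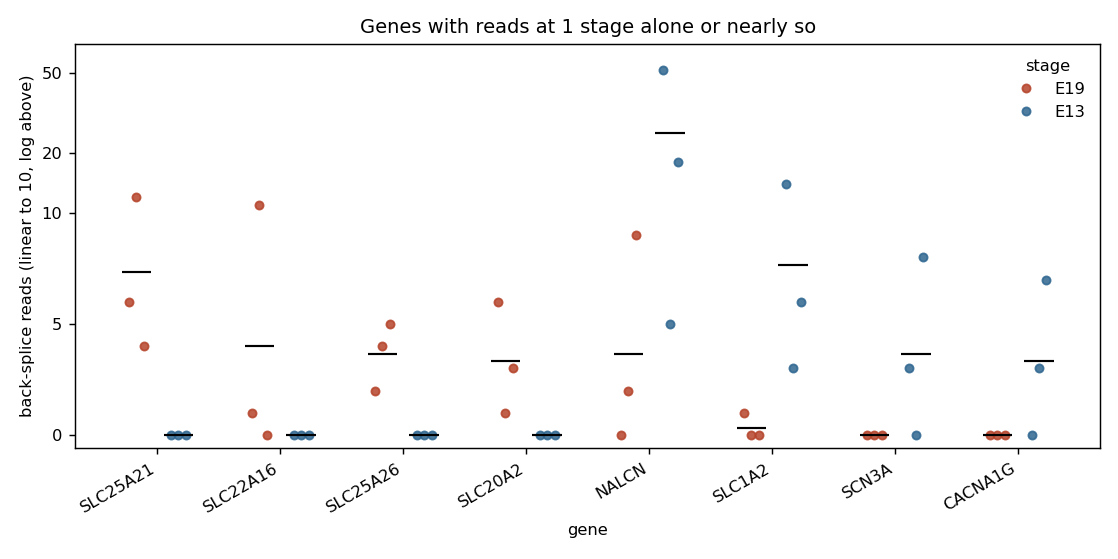
Back-splice reads (linear to 10, log above) of 8 genes in each of 3 E19 (left of each pair) and 3 E13 libraries, with the mean as a bar. NALCN had reads at both stages, 11 at E19 and 75 at E13. The others were seen at a single stage or nearly so. SLC25A21, SLC25A26 and SLC20A2 had reads in all 3 E19 libraries and none at E13, whereas the reads of SLC22A16, NALCN, SCN3A and CACNA1G lay mostly in 1 or 2 libraries.

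Junction by junction, 70 of 276 had at least 10 reads, and none passed an edgeR adjusted p of 0.05, where 1.16% of 3608 junctions did (0.776% higher and 0.388% lower). The 3608 junctions of the whole table include intergenic ones, and no junction of the channel and carrier genes is intergenic. The smallest adjusted p was 0.0917, for the NALCN circle of exons 3 to 5. At an unadjusted p of 0.05 there were 5 junctions, 3 higher and 2 lower at E19, where 9.2% of all junctions were past it (6.13% higher and 3.08% lower). DESeq2 also called none, and limma voom called 1. Reads at E19 alone were found in 3 of the 70 and at E13 alone in 2, compared with 7.34% and 4.46% of all junctions tested.

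The circles of channel and carrier genes resembled those of other genes in most respects. Of the 276 junctions, 256 (92.8%) were exonic, compared with 87.7% in the other genes, and the rest were intronic. The exonic circles held a median of 4 exons and 500.5 bases, compared with 3 exons and 451 bases in other genes. Among junctions with exon numbers, 74 of 235 (31.5%) began at exon 2, compared with 23.5% in other genes, and 10 (4.26%) began at exon 1, compared with 5.86%. These are descriptions without a test, since the junctions of a gene share its exons. Of the 97 genes, 43 had a single junction and 18 had 5 or more (18.6%, compared with 18.9% of other genes). Among the 52 genes with at least 2 exonic circles, 41 had circles with a common start or end, and 179 of their 220 exonic junctions shared such an edge.

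Detection was sparse for most of them. Reads in all 6 libraries were found for 21 junctions (7.61%, compared with 7.09% in other genes), and 161 (58.3%) were seen in a single library, compared with 63.4%. By gene, 21 were seen in all 6 libraries, 53 at both stages, 22 at E19 alone and 22 at E13 alone, and 33 were seen in 1 library. These gene counts were not set beside those of other genes and are not a trait of this group. Of the 97 genes, 54 had under 10 reads.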

How the data were processed

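Breast muscle circular RNA of 3 E19 and 3 E13 Shanma duck embryos was analysed. Per the methods of the authors, adaptors were cut with Cutadapt, reads were aligned to the Ensembl duck genome by Bowtie 2 and TopHat 2, and back-splices were found by TopHat-Fusion, CIRCexplorer2 and CIRI. Neither tool versions nor the build is given in the sources used here. The counts deposited are unscaled back-splice reads of each listing. The SRPBM signal was computed by the authors from the counts and the mapped and candidate bases of a library, and the same scale was applied here to summed reads. Exon numbers and circle lengths are other columns that the authors deposited. Their own fold changes and p-values of E19 against E13 were not used, and 0 columns of further samples were present.

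Listings on the same strand with the same end and starts 1 base apart were taken as 1 junction, with the larger count per library, and genes with an identical description as 1 gene. Starts are counted from 1. Most such pairs hold a listing with exon numbers and another with intron coordinates. Junctions and genes with at least 10 reads over 6 libraries were tested with edgeR 4.0.16 (quasi-likelihood, mapped reads of the study's mapping statistics as library size, Benjamini-Hochberg over the whole table). The SE is the absolute log2 fold change over the square root of F. A fold against a stage without reads sets 3 reads over that stage and takes the reads of the other stage as seen. It is thus a lower bound for counting error in the stage without reads alone. Counting error of the other stage and the spread between libraries are not covered. The test was checked on simulated data. At an 8-fold change it called 38 of 61 genes among 1606 tested and 22 of 54 junctions among 2895 tested. At 2-fold it called 2 of 60 genes, of which 1 in the right direction, and 1 of 54 junctions. Where no change was set it called 3 of 1422 genes and 2 of 2734 junctions. The spread used in the simulation was estimated from these same data. Replicates are separate libraries, and p-values weigh the difference between stages against the spread between libraries.

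Genes were named if they passed, were among the 15 with the most reads or the 8 smallest p per direction, led their class, or had 5 or more junctions; junctions if they were among the 10 with the most reads, the 8 smallest p per direction, or the 6 with the most reads at 1 stage alone. Further circles of these genes and small counts were named after their values were seen. The members, lists and tests were chosen with earlier results of these data known. A few genes are counted in the totals without being reported by name. TPCN1, a member, was dropped from the list of other transport genes. R 4.3.3, limma 3.58.1, DESeq2 1.42.0 and Python 3.11.15 were used. Alternatives were other library sizes, tools, filters, ways to join listings, the second count table, each library left out and a replicate block.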

Additional observations from a re-analysis of the deposited data

How the results depend on the processing

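There were 17 alternatives. The count of genes higher at E19 was 1 and became 0 with DESeq2, with at least 20 reads, with every listing on its own and with listings summed; leaving out a library gave 0 to 1, with 0 without E13 replicate 2 or E19 replicate 2. The count lower at E19 was 1 and became 0 with DESeq2, TMM factors, at least 20 reads, every listing on its own, limma voom, the listing with more reads, listings summed, no filter, the replicate block and total back-splice reads as library size; leaving out a library gave 0 to 1. NALCN passed without E19 replicate 3 and did not pass without any of the other libraries. Its log2 fold change stayed between -4.44 and -1.69. The count of junctions higher at E19 was 0 and became 1 with limma voom, no filter and the replicate block; leaving out a library gave 0 to 0, as did junctions lower at E19.

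Scaling moved the median of all genes from 0.24 with mapped reads to 0.05 with TMM factors, 0.03 with DESeq2 and -0.03 with total back-splice reads. SLC10A7 fell below 0 under these (-0.142, -0.163 and -0.22) and without E13 replicate 2 (-0.0766) or E19 replicate 2 (-0.0098), with 0.188 the highest value with a library left out. SLC2A13 fell below 0 with TMM factors (-0.0314), DESeq2 (-0.0565) and total back-splice reads (-0.115). SLC9A9 lay further below 0 under the same scalings and did not pass. It was at -0.673 with TMM factors (edgeR adjusted p = 0.236) and -0.697 with DESeq2 (DESeq2 adjusted p = 0.0759). With total back-splice reads it was at -0.755 (edgeR adjusted p = 0.125). The median of all genes fell under these scalings too, and SLC9A9 lay no further from it than with mapped reads.

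Replicate numbers did not pair the libraries. Deviations of same-numbered libraries correlated at -0.06, 0.03 and -0.06 over 1042 junctions. With the replicate block 29 genes were called in all, and 50 without it, and 1 channel or carrier gene higher and 0 lower. Of all features, 13 to 50 genes (50 as reported) and 2 to 73 junctions (42 as reported) passed across the alternatives. Low reads limit most genes, since 54 of 97 had under 10.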

Other observations

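Ion pumps, flippases, release channels and other transport genes that the description rule does not take had circles from 29 of 55 listed genes. Of 15 tested, 1 passed, where 2.72% of all genes tested did, and 9 were above 0 and 6 below, where 58.8% of all genes were above 0. They had a median log2 fold change of 0.16 where that of all genes tested was 0.24. The gene that passed was RYR3, a calcium release channel of the sarcoplasmic reticulum, with 5, 33 and 24 reads at E19 and 1, 5 and 0 at E13 (log2 fold change 3.24, SE 0.94, edgeR adjusted p = 0.027). Its lowest E19 library equalled the highest E13 library in reads. RYR2 had 0, 1 and 0 reads at E19 and 9, 8 and 0 at E13 and did not pass (edgeR adjusted p = 0.494).

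ATP9B, a putative phospholipid flippase, had the most reads of the list, 569 at E19 and 500 at E13 over 26 junctions, and the stages overlapped (log2 fold change 0.16, SE 0.35, edgeR adjusted p = 0.964). ATP8A2, another flippase, had 18, 42 and 33 reads at E19 and 12, 10 and 3 at E13, with no overlap (log2 fold change 1.85, SE 0.63, edgeR adjusted p = 0.101). MICU2, a regulator of mitochondrial calcium uptake, had 42, 86 and 53 reads at E19 and 33, 33 and 39 at E13, also without overlap (edgeR adjusted p = 0.494).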
